A study of Mus musculus with 12 samples.

Results

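The genes described here encode the proteins of the cardiac sarcomere and of the Z-disc that joins one sarcomere to the next. They were chosen by name as a list of 34 genes of ventricular muscle covering the thick and thin filaments, the giant scaffold proteins, the M-band, the Z-disc, the filament ends and the intercalated disc. All 34 were found, each as 1 transcript, among the 21669 transcript names in every count table, and all 34 passed the filter on low counts in both assays.

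The sarcomere is the contractile unit of striated muscle. Myosin thick filaments, held in register at the M-band, pull on actin thin filaments that are anchored at the Z-disc, and calcium binding to troponin decides when they may do so. In the adult mouse ventricle the main myosin heavy chain is the fast alpha isoform from *Myh6*, while the slow beta isoform from *Myh7* is the fetal form and returns under load. *Rpl3l* encodes a muscle-specific form of the ribosomal protein from *Rpl3*, and the study compared hearts with and without it.

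Left ventricle of adult mice was used, from wild-type animals (WT) and from animals without *Rpl3l* (Rpl3l-/-, KO). No treatment is given in the labels, and strain, sex and exact age are not given in the sources used here. Each ventricle lysate, made with cycloheximide to hold ribosomes in place, served for ribosome profiling, which counts the mRNA fragments that ribosomes shield from RNase I (ribosome-protected fragments, RPF, or footprints), or for sequencing of polyadenylated RNA. There were 3 libraries for each genotype in each assay, stated by the design to be biological triplicates, so the tests measure the spread between these hearts. The tissue is a bulk mixture, in which fewer cells of a type and less RNA per cell cannot be told apart.

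Library totals lay between 3827862 and 7474602 counts in RPF and between 6635242 and 8459004 in RNA. Mitochondrially encoded transcripts took 49.8% to 58.2% of the RNA counts, which left between 2814810 and 4023519 nuclear counts per RNA library, and 2.28% to 5.22% of the RPF counts. A floor of 3 counts corresponds to 0.304 to 0.449 CPM (the usual measure of counts scaled to library size) in RNA and to 0.404 to 0.791 CPM in RPF, which covers counting error only. *Rpl3l* itself was lower in every KO library than in every WT library of both assays. Genes of skeletal muscle fibres summed to between 4.19 and 12.1 CPM in RPF, against 40888 to 53348 for 7 genes of ventricular muscle cells. In RNA the sums were 7.09 to 15.1 CPM against 6670 to 7474. Genes typical of atrium, fibroblasts, endothelium, macrophages and mural cells were all detected, and none of the genes in those marker lists passed the test between genotypes. The RPF library of WT replicate 1 stood apart from the other 5 on the first principal component of its assay (38.2% of the variance). On that of the RNA libraries (46.2%), WT replicates 1 and 2 and KO replicate 2 lay on one side and the other 3 libraries on the other.

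The pair of myosin heavy chains shows how alike some members are in sequence, which limits how their reads can be told apart. *Myh6* (ENSMUSG00000040752.16) and *Myh7* (ENSMUSG00000053093.16) are neighbours on the minus strand of chromosome 14, at 54941921 to 54966641 with 39 exons and at 54970767 to 54994626 with 41 exons (GRCm38, GENCODE M21). Their first 90 coding bases are shown because both counts depend on such stretches, with the 20 bases that differ in capitals.
Myh6: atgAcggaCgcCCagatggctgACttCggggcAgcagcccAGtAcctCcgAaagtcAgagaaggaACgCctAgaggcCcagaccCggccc
Myh7: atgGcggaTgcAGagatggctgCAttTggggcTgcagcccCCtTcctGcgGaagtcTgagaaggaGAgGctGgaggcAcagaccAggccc
Of the 6203 windows of 28 bases (about the length of a footprint) in the *Myh7* transcript, 2095 (33.8%) were identical to a stretch of *Myh6*, and 61.7% matched with at most 2 mismatches. How reads that match both were counted is not given in the sources used here, so the lower of the pair, *Myh7*, is uncertain. The cardiac actin transcript *Actc1* shared only 0.138% of its windows exactly with the skeletal actin *Acta1*, and 16.3% within 2 mismatches. The other 8 pairs of related transcripts that were compared shared at most 0.534% exactly.

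3 further members are shown for their base composition, with which footprint levels of single libraries moved, as described with the genotype comparison. *Synpo2l* (chromosome 14, 20659418 to 20668354, minus strand), *Ldb3* (chromosome 14, 34526603 to 34588664, minus strand) and *Xirp2* (chromosome 2, 67446002 to 67526606, plus strand) have coding sequences of 60.3%, 59.6% and 42.0% G plus C. For each, the first in-frame 90-base window closest to that composition is shown, with G and C in capitals, which number 54, 54 and 38.
Synpo2l: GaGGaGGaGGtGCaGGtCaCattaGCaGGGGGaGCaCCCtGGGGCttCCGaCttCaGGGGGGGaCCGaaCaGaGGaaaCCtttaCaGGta
Ldb3: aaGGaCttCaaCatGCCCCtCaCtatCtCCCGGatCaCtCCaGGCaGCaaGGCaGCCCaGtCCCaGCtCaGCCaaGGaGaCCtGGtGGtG
Xirp2: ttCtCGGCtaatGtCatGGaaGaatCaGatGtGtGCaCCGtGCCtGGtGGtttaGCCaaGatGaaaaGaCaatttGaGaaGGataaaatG
*Synpo2l* encodes a synaptopodin-like protein of the Z-disc, *Ldb3* the PDZ and LIM protein ZASP (Cypher) that binds alpha-actinin, and *Xirp2* a Xin-repeat protein that binds actin.

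The 34 genes were a large part of what the ventricle transcribed and translated. Summed, they took 15.6% ± 0.205 of nuclear RNA counts in WT against 15.1% ± 0.434 in KO, and 16.01% ± 0.384 of nuclear footprints in WT against 15.7% ± 0.382 in KO (SD, n = 3). The genotypes overlapped in both assays, with exact two-sided permutation p = 0.2 for RNA and 0.5 for RPF, where 0.1 is the smallest p that 3 against 3 libraries allow. *Myl2*, the ventricular regulatory light chain, took the largest single share of RNA, between 3.17% and 3.73% of nuclear counts per library. *Myh6*, with its long coding sequence, took the largest share of footprints, between 3.25% and 3.90%.

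Per kilobase of coding sequence, the footprint level of the members spanned more than 3 orders of magnitude. The light chain *Myl2* led in WT with 26622 ± 2513 CPM per kilobase, followed by the cardiac actin *Actc1* with 25662 ± 2898 (SD, n = 3 each), a gap smaller than their SDs. *Myl3*, the essential light chain, stood at 18115 ± 557 and *Tnni3*, the inhibitory troponin subunit, at 15665 ± 476. *Tpm1*, the tropomyosin that winds along actin, had 12530 ± 670. The small proteins of the filaments thus led the order. *Tnnt2*, which ties troponin to tropomyosin, *Myh6* and *Tnnc1*, the calcium-binding troponin subunit, followed at 6838 ± 639, 5960 ± 602 and 5682 ± 958, and their SDs overlap.

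Z-disc and scaffold genes lay lower and were spread widely. *Tcap* (telethonin, the cap on titin's end) and *Csrp3* (muscle LIM protein) had 3467 ± 942 and 3306 ± 61.0 footprint CPM per kilobase in WT, *Actn2*, the alpha-actinin that crosslinks actin at the Z-disc, 1418 ± 174, and the intermediate filament gene *Des* 1818 ± 343. *Ttn*, the titin spring that runs from Z-disc to M-band, had 90.1 ± 19.3 over a coding sequence of 100404 bases. The lowest densities were those of *Xirp2* at 12.4 ± 3.33 and *Myh7* at 12.2 ± 2.44.

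**Figure D1:**
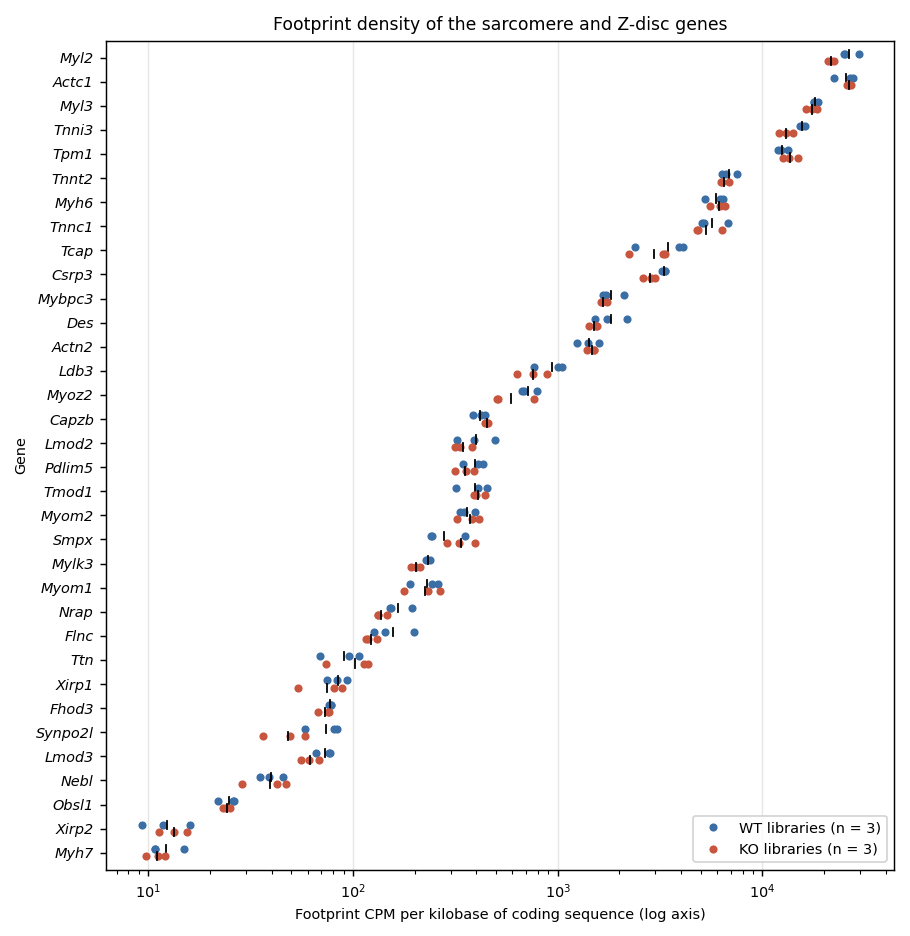
Footprint level of each of the 34 genes as CPM per kilobase of coding sequence (horizontal log axis), with 1 point per library (3 WT, 3 KO) and a bar at each group mean, ordered by the WT mean. Light chains, actin, troponin I and tropomyosin are at the top, between 12530 and 26622 in WT, and *Myh7* at the bottom with 12.2.

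Between genotypes, no member passed the test in RNA, in RPF or in translational efficiency (TE, footprints relative to RNA). With edgeR's quasi-likelihood test and an adjusted p under 0.05, 0 of 34 members were called in RNA (0.0119% of all rows tested), 0 of 34 in RPF (0.00897%) and 0 of 34 in TE (0%). At an unadjusted p under 0.05 the same test gave 0 of 34 in RNA (2.54% of all rows) and 0 of 34 in TE (3.73%), while in RPF it gave 7 of 34 (5.96%), all with a lower estimate in KO. DESeq2 gave the same counts of 0 called, and of 0, 7 and 0 unadjusted. The share of all rows at an unadjusted p under 0.05 in DESeq2 is not given here.

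The estimates lay somewhat below 0 in both assays. The median log2 fold change, KO against WT, was -0.08 over the members in RNA, against -0.0066 over all 8379 rows tested, and 24 of 34 were below 0 (50.9% of all rows). In RPF the median was -0.11, against 0.0014 over 11153 rows, with 24 of 34 below 0 (49.8%). In TE it was 0.03, against 0.01 over 8044 rows, with 14 of 34 below 0 (48.3%). Members share libraries and are not replicates, so these counts describe the list. Markers of other cells differed in direction. The 4 atrial markers had medians of 0.63 in RNA and 0.27 in RPF, with 3 and 2 of 4 at an unadjusted p under 0.05, and the 4 endothelial markers had 0.31 and 0.19. All 8 were above 0 in both assays. Medians of the other lists in RNA and RPF were 0.06 and 0.09 for fibroblast markers and 0.03 and -0.14 for macrophage markers. For mural markers they were -0.0092 and -0.42. For the 7 ventricular muscle markers they were -0.04 and 0.03, with none at an unadjusted p under 0.05 in either assay. The part of these cells in the members' estimates was not tested.

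The precision bounds what could have been missed. In RPF the 95% interval of the fold change lay wholly within 1.5-fold in either direction for 28 of 34 members (29.0% of all rows) and within 2-fold for 33 (63.8%), *Synpo2l* being the exception. In RNA the intervals were wider, within 1.5-fold for 13 members (25.6%) and within 2-fold for 31 (69.4%). In TE, which carries the error of both assays, 8 members lay within 1.5-fold (4.95%) and 24 within 2-fold (43.3%).

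**Figure D2:**
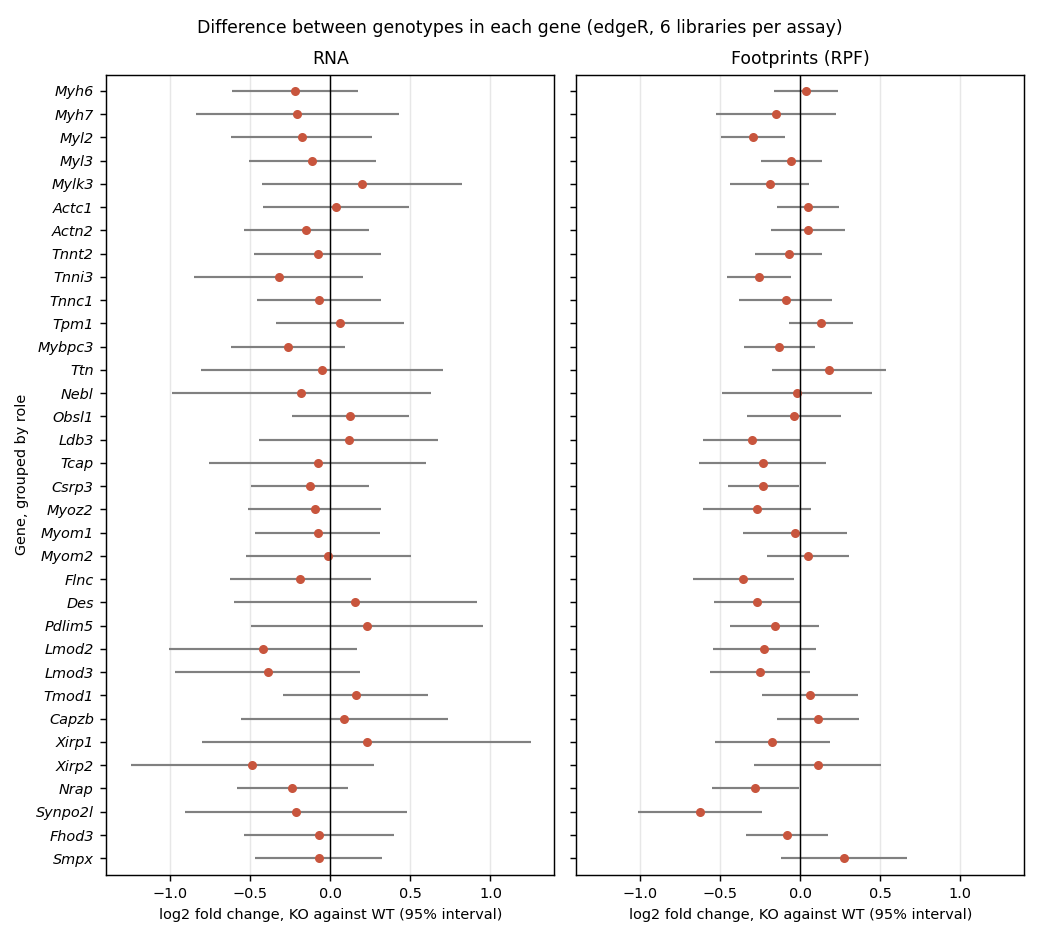
Log2 fold change, KO against WT, of each gene in RNA and in footprints (points) with its 95% interval (lines) from edgeR's quasi-likelihood fit of 6 libraries per assay, in the order of the gene list. Footprint intervals are the narrower, and 7 of them lie below 0, those of *Synpo2l*, *Myl2*, *Tnni3*, *Flnc*, *Nrap*, *Csrp3* and *Ldb3*.

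Among the thick-filament genes, *Myh6* RNA was 6071, 5561 and 5201 CPM in WT replicates 1 to 3 and 4265, 5020 and 5141 CPM in KO. The KO libraries were all below the WT libraries, by little for the closest pair. Its footprints were 36189, 37154 and 30664 CPM in WT and 32288, 38318 and 36143 in KO and overlapped fully. The log2 fold change of *Myh6* was -0.22 (SE 0.18) in RNA with an adjusted p of 0.999, and 0.04 (SE 0.09) in RPF with 0.971, both by edgeR's quasi-likelihood test. In TE it was 0.28 (SE 0.23), with an adjusted p of 0.9997 in the same test. The RPF estimate changes sign without WT replicate 3 (-0.04) or KO replicate 2 (-0.02).

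*Myh7*, the slow isoform, had 78.7, 81.3 and 49.3 RNA CPM in WT and 49.2, 87.5 and 44.8 CPM in KO. Its footprints were 87.2, 62.7 and 62.6 CPM in WT and 70.2, 56.4 and 64.8 CPM in KO. The genotypes overlapped in both assays, and WT replicates 1 and 2 and KO replicate 2 were the high RNA libraries. The share of *Myh7* in the sum of both chains was 1.22% ± 0.256 of RNA counts in WT against 1.24% ± 0.432 in KO (SD, n = 3; exact two-sided permutation p = 1). In footprints the WT share was 0.204% ± 0.0360 and the KO share 0.181% ± 0.0350 (exact p = 0.5). Single libraries ranged from 0.865% (exact Clopper-Pearson 95% interval 0.787 to 0.949) to 1.71% (1.58 to 1.86) in RNA and from 0.147% (0.133 to 0.163) to 0.240% (0.218 to 0.264) in RPF. Both extremes of RNA were KO libraries, replicates 3 and 2. No rise of the slow isoform was detected at this depth in either assay.

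*Myl2* gave one of the clearer footprint differences. Its footprints were 12747, 12483 and 14783 CPM in WT and 10813, 11259 and 10533 CPM in KO, and every KO library lay below every WT library. The log2 fold change was -0.30 (SE 0.09, unadjusted p = 0.0063), and the adjusted p was 0.834 in edgeR's quasi-likelihood test. Its RNA, 19365, 15416 and 13391 CPM in WT and 13598, 14950 and 13988 in KO, overlapped. The kinase that phosphorylates this light chain, *Mylk3*, also had lower footprints in every KO library, 460.3 to 504.8 CPM against 542.3 to 567.9 in WT (log2 fold change -0.19, SE 0.11).

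*Mybpc3*, myosin-binding protein C, had the lowest unadjusted p of the members in RNA (0.13). Its RNA was 1651, 1548 and 1573 CPM in WT and 1329, 1367 and 1276 CPM in KO, with no overlap, and the replicates of each group were close together. The log2 fold change was -0.26 (SE 0.16, adjusted p = 0.999 in edgeR's quasi-likelihood test). Its footprints, 6400 to 8063 CPM in WT and 6215 to 6705 CPM in KO, overlapped.

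Of the 5 thin-filament genes, *Tnni3* stood out in footprints. It had 10294, 9700 and 9896 footprint CPM in WT and 9025, 7673 and 8270 in KO. All KO libraries were below all WT libraries, with a log2 fold change of -0.26 (SE 0.09, unadjusted p = 0.01), while edgeR's adjusted p was 0.834. Its RNA ran from 9287 to 14703 CPM in WT and from 8096 to 12248 in KO. The other 4, *Actc1*, *Tnnt2*, *Tnnc1* and *Tpm1*, had footprint estimates between -0.09 and 0.13 and 95% intervals within 1.5-fold, and their groups overlapped.

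The giant protein *Ttn* varied between libraries more than between genotypes. Its RNA was 1074, 973.3 and 434.5 CPM in WT and 659.1, 1116 and 618.0 CPM in KO, so that the highest and lowest values came from different genotypes. Its footprints were 10690, 9552 and 6909 CPM in WT and 7415, 11338 and 11953 in KO. The log2 fold changes were -0.05 (SE 0.34) in RNA, 0.18 (SE 0.17) in RPF and 0.26 (SE 0.45) in TE. Leaving out single libraries turned the sign of the RNA estimate (-0.38 to 0.18) and of the TE estimate (-0.01 to 0.51). *Nebl*, counted here on a short transcript of 7 exons and 813 coding bases, and *Obsl1*, an obscurin-like scaffold gene, had footprint estimates of -0.02 and -0.04, and the M-band genes *Myom1* and *Myom2* had -0.03 and 0.05.

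The 9 Z-disc genes had the lowest footprint estimates as a group, with a median log2 fold change of -0.27 and 8 of 9 below 0 (49.8% of all rows), *Actn2* (0.05) being the exception. The median was -0.15 without WT replicate 2, -0.19 without KO replicate 2 and -0.20 with the trend of each library over coding G plus C removed, and 5 of the 9 have 55% G plus C or more. *Synpo2l* had the lowest unadjusted p of all members in any genotype comparison (0.0034). Its footprints were 237.0, 244.8 and 170.9 CPM in WT and 144.4, 107.3 and 171.0 CPM in KO. The groups touched, since WT replicate 3 and KO replicate 3 were level, and the other 2 KO libraries lay below all WT libraries. The log2 fold change was -0.63 (SE 0.18, 95% interval -1.01 to -0.24), and the adjusted p was 0.834 by edgeR's quasi-likelihood test. Its RNA rested on 20 to 58 raw counts per library and overlapped (log2 fold change -0.22, SE 0.31).

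Beside *Synpo2l*, 3 Z-disc genes had an unadjusted p under 0.05 in RPF. *Csrp3*, at 1952, 1893 and 1957 footprint CPM in WT and 1744, 1521 and 1677 in KO, did not overlap, with a log2 fold change of -0.23 (SE 0.11). *Flnc*, the muscle filamin, had 1162, 1601 and 1023 CPM in WT and 953.6, 939.2 and 1064 in KO (-0.36, SE 0.15). *Ldb3* had 2171, 2287 and 1658 CPM in WT and 1920, 1377 and 1653 in KO (-0.31, SE 0.14). The last 2 overlapped between genotypes. *Des* (-0.27, SE 0.13) and *Myoz2*, the calsarcin that links alpha-actinin to calcineurin (-0.27, SE 0.16), had unadjusted p-values of 0.053 and 0.11, and *Pdlim5* and *Tcap* had -0.16 and -0.24.

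Outside the Z-disc, *Nrap*, a nebulin-related anchor at the ends of myofibrils, was lower in every KO library in both assays. Its RNA was 312.2, 286.4 and 320.9 CPM in WT and 256.9, 251.9 and 270.8 CPM in KO (log2 fold change -0.24, SE 0.16). Its footprints were 795.5, 1007 and 783.8 CPM in WT and 685.9, 683.8 and 757.7 in KO (-0.28, SE 0.13). It was the only member of the 34 whose genotypes were apart in both assays. The share of all rows apart in both assays is not given here, so this count cannot be set against it. The adjusted p-values of *Nrap* in edgeR's quasi-likelihood test (0.999 and 0.834) do not call a difference. Over all members, the KO libraries lay wholly below WT for 3 genes in RNA (3.19% of all rows), *Mybpc3*, *Myh6* and *Nrap*, and wholly above for 0 (4.14%). In RPF they lay wholly below for 5 (5.77%), *Myl2*, *Mylk3*, *Tnni3*, *Csrp3* and *Nrap*, and wholly above for 1 (6.27%). The latter was *Capzb*, the capping protein of the barbed actin end, at 322.7 to 367.6 CPM in WT and 368.9 to 379.3 in KO.

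Among the genes of the filament ends, none passed the test. *Lmod2*, the leiomodin that lengthens thin filaments, had 246.9, 206.0 and 144.5 RNA CPM in WT and 121.3, 204.3 and 120.2 in KO, with overlap. Its log2 fold change in RNA was -0.42 (SE 0.26, unadjusted p = 0.14) and its adjusted p 0.999 in edgeR's quasi-likelihood test. The unadjusted p of *Lmod2* fell under 0.05 without a filter on low counts, with the replicate block, without WT replicate 3 and without KO replicate 2. *Lmod3* had -0.39 (SE 0.26) in RNA and -0.25 (SE 0.15) in RPF. *Tmod1*, a tropomodulin that caps thin filaments, had 0.16 (SE 0.20) and 0.06 (SE 0.14), and the formin *Fhod3* -0.07 (SE 0.21) and -0.08 (SE 0.12).

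In TE the lowest unadjusted p-values belonged to *Xirp2*, *Smpx* and *Ldb3*, at 0.17, 0.19 and 0.23. *Xirp2* had 720.8, 617.4 and 273.0 RNA CPM in WT and 345.5, 513.6 and 290.1 in KO, with 181.0, 134.4 and 106.2 footprint CPM in WT and 127.9, 151.3 and 175.8 in KO. Both assays overlapped, and the TE difference was 0.62 (SE 0.44). *Smpx*, a small muscle protein on the X chromosome, had 64.9, 56.6 and 67.8 RNA CPM in WT and 65.7, 65.2 and 49.2 in KO, and 63.0, 61.9 and 90.9 footprint CPM in WT and 74.4, 85.0 and 102.1 in KO. Its TE difference was 0.37 (SE 0.27), again with overlap in both assays. *Ldb3* RNA was 22.8, 25.3 and 43.1 CPM in WT and 37.4, 26.7 and 34.9 in KO, and its TE difference was -0.40 (SE 0.32). The adjusted p of all 3 was 0.9997 in edgeR's quasi-likelihood test.

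**Figure D3:**
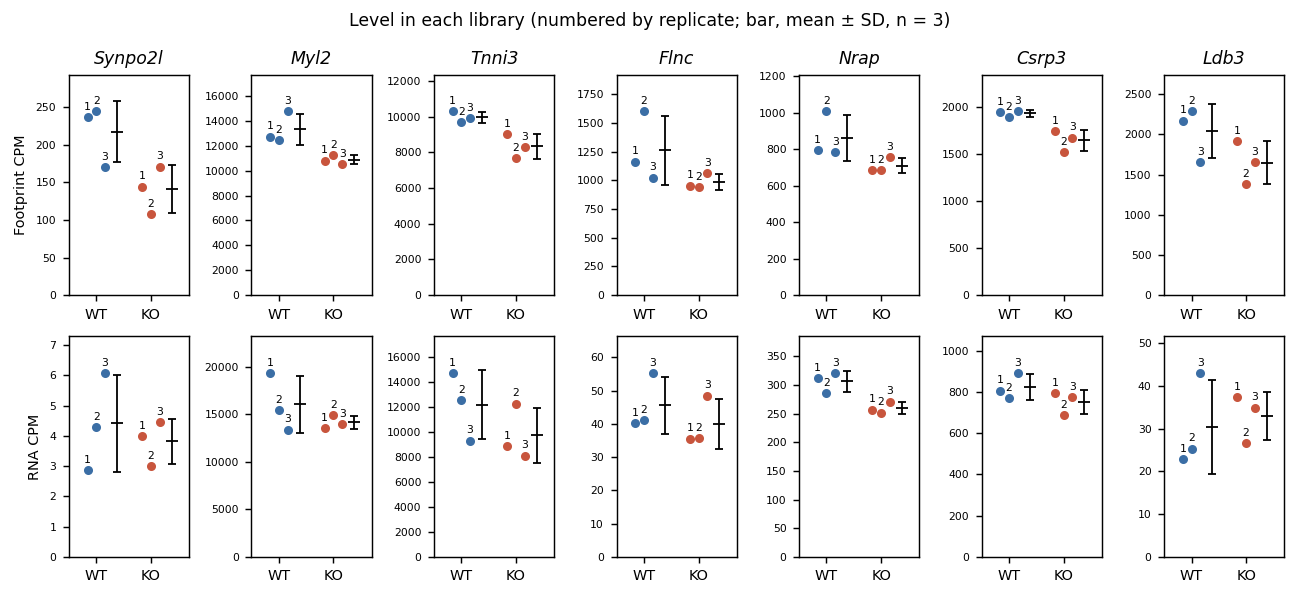
CPM of the 7 genes with an unadjusted p under 0.05 in footprints, with footprints in the upper row and RNA in the lower row, 1 numbered point per library and mean ± SD (n = 3) beside each group, on axes that start at 0. In footprints *Myl2*, *Tnni3*, *Nrap* and *Csrp3* separate the genotypes and *Synpo2l*, *Flnc* and *Ldb3* do not; in RNA only *Nrap* does.

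The number of members with an unadjusted p under 0.05 in RPF depended on single libraries. It was 2 (*Myl2* and *Synpo2l*) without KO replicate 2, 3 without KO replicate 3, 4 without WT replicate 2 and 6 without WT replicate 1, the library that stood apart, and 7 and 9 without the remaining 2 (KO replicate 1 and WT replicate 3). *Myl2* and *Synpo2l* were among them in every one of these fits. In WT replicate 2 and KO replicate 2 the deviation of a gene from its mean over all 6 libraries went with base composition. In RPF WT replicate 2 it rose with coding G plus C across members (Spearman rho 0.55, n = 34, and 0.35 over 11064 rows), and in KO replicate 2 it went the other way (-0.36 and -0.48). In the other 4 RPF libraries rho lay between -0.29 and 0.17 over members and between -0.03 and 0.04 over all rows. *Synpo2l* and *Ldb3* are among the 12 members of 55% G plus C or more, and *Xirp2* among the 7 under 50%. With each library's trend over G plus C removed, a step added after seeing the data, 4 members had an unadjusted p under 0.05 (*Lmod3*, *Myl2*, *Synpo2l* and *Tnni3*), *Synpo2l* had -0.52 and *Myl2* -0.35, and 0 passed the adjusted threshold in edgeR's quasi-likelihood test. For this fit and those with a library left out, the share of all rows at an unadjusted p under 0.05 is not given here. The counts of members therefore cannot be set against it.

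In RNA the same kind of deviation followed the length of the 3′ untranslated region (3′ UTR, the part of the mRNA after the stop codon). Across members rho was -0.66, -0.43 and 0.64 in WT replicates 1 to 3 and 0.50, -0.54 and 0.65 in KO replicates 1 to 3, which is the split of the first principal component and is not the genotype. Over all 8311 rows it stayed between -0.09 and 0.10. With coding G plus C, rho over members was -0.48, -0.09 and 0.43 in WT and 0.07, -0.12 and 0.26 in KO, and between -0.13 and 0.13 over all rows. In WT replicate 3, *Ldb3* (2857 bases of 3′ UTR) deviated by 0.48 and *Ttn* (0 bases annotated) by -0.82, but *Nebl*, with the longest 3′ UTR (4785 bases), by -0.15, and *Nrap* (154 bases) by 0.19. Without WT replicate 3, 5 members had an unadjusted p under 0.05 in RNA (*Ldb3*, *Lmod2*, *Lmod3*, *Mylk3* and *Xirp2*) and 5 in TE (*Des*, *Ldb3*, *Mylk3*, *Synpo2l* and *Xirp2*). Without KO replicate 2, 3 did in RNA (*Lmod2*, *Lmod3* and *Myh7*). None passed the adjusted threshold in either case, and the part of composition and 3′ UTR length in the genotype differences was tested only as stated. The share of all rows at an unadjusted p under 0.05 without these libraries is not given here either.

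**Figure D4:**
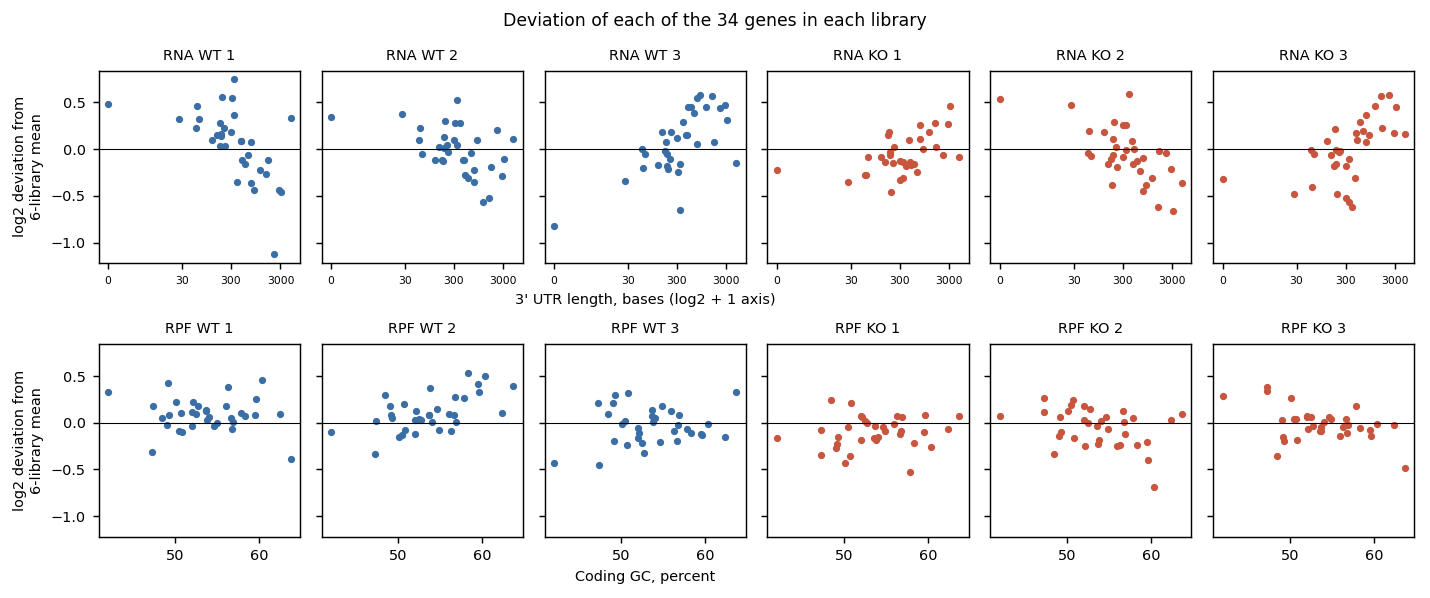
Log2 deviation of each of the 34 genes from its mean over the 6 libraries of the assay, 1 panel per library, against 3′ UTR length for RNA (upper row, axis of log2 of length + 1) and against coding G plus C percent for footprints (lower row). In RNA the slope changes sign between WT replicates 1 and 2 and KO replicate 2 on one side and the other 3 libraries; in footprints WT replicate 2 and KO replicate 2 slope in opposite directions.

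The largest differences among the members were between assays, not genotypes. Relative to the typical gene of the same fit, 16 of 34 members were higher in footprints than in RNA in WT (38.3% of all rows tested) and 14 were lower (35.6%), at an adjusted p under 0.05 in edgeR's quasi-likelihood test. In KO the counts were also 16 (37.9%) and 14 (34.7%). The same 16 and the same 14 genes were called in both genotypes, which share a fit but no library, and *Actn2*, *Lmod2*, *Myom1* and *Nrap* were called in neither. The shares are not far from those of all genes. The zero of this scale is set by the library scaling. *Myh6*, for example, had 0.96 in WT, 0.57 without a filter on low counts and 1.52 with a mean of at least 50 counts. These differences are scaled over 12 libraries, but CPM within each assay. A difference is therefore not the ratio of the CPM printed with it.

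The 4 members highest in footprints relative to RNA had between 4 and 411 raw RNA counts per library in WT. *Xirp1*, a Xin-repeat protein of the intercalated disc, had 285.3, 319.4 and 253.4 footprint CPM in WT but 4, 14 and 21 raw RNA counts, a log2 difference of 5.83 (SE 0.32). *Pdlim5*, a PDZ and LIM protein of the Z-disc, had 5.02 (SE 0.28), with 770.6, 722.1 and 613.7 footprint CPM and 5.02, 6.49 and 8.80 RNA CPM. *Tmod1* had 4.43 (SE 0.19), with 489.4, 440.4 and 343.0 footprint CPM and 6.02, 5.71 and 6.91 RNA CPM. All 3 had under 10 RNA CPM in every library, where the floor is at most 0.449. *Ldb3* had 4.41 (SE 0.26), with 22.8, 25.3 and 43.1 RNA CPM. In KO these 4 differences were 5.45, 4.65, 4.35 and 4.01.

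At the other end stood *Xirp2*, with a log2 difference of -3.60 (SE 0.34) in WT and -2.98 (SE 0.33) in KO. The related Xin-repeat genes thus lay at opposite ends of the members, and they shared none of their 28-base windows, even within 2 mismatches. *Myoz2* had -3.12 (SE 0.21), with 1822, 1378 and 1476 RNA CPM and 531.5, 631.7 and 545.4 footprint CPM in WT, each scaled within its assay. *Tnnt2* had -2.18 (SE 0.16), with 9644, 8749 and 8325 RNA CPM and 6035, 5747 and 6865 footprint CPM. *Lmod3* had -2.06 (SE 0.23), with 206.0, 171.3 and 118.7 RNA CPM and 113.1, 130.4 and 133.0 footprint CPM. In KO the last 3 stood at -3.26, -2.15 and -1.89, so that *Myoz2* was the lowest there, and *Myl2* (-2.02) and *Tnnc1* (-1.99) also lay below *Lmod3*.

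The heavy chains split in the same way. *Myh6* had 0.96 (SE 0.17) in WT and 1.25 (SE 0.17) in KO, and *Myh7* -1.64 (SE 0.26) and -1.56 (SE 0.26). The counts of *Myh7* are uncertain because of the stretches it shares with *Myh6*, as stated above. Its sign also turned with the 3′ UTR trend removed, as given below. Library by library, *Myh6* lay at 0.91, 1.06 and 0.92 in WT and 1.28, 1.29 and 1.178 in KO. That is higher in each KO heart if equal numbers are the same heart, which the labels do not state. The share of all rows whose ratios separate in this way is not given here. The difference between genotypes was the TE value of 0.28 given above, which did not pass the test. *Ttn* had 1.78 (SE 0.32) in WT and 2.04 (SE 0.33) in KO. Within the thin filament 4 of 5 members were below 0 and *Actc1* was above with 1.54 (SE 0.18), and *Tnni3* stood at -1.95 (SE 0.21).

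The members' footprint-to-RNA differences went with 3′ UTR length. Across the 34 members Spearman's rho was 0.60 in WT and 0.56 in KO, against 0.38 and 0.39 over 7981 rows with an annotated transcript, and the points share their libraries. In WT, rho over members was 0.31 for coding length, 0.29 for coding G plus C and -0.10 for 5′ UTR length. These features were examined after the values were seen. Of 18 members with at most 400 bases of 3′ UTR, 5 lay above 0, with a median of -0.69, where 24.0% of 2391 rows did, with a median of -0.98. Of 9 members with over 400 and up to 1000 bases, 6 lay above 0 (median 1.23, against 0.36 and 58.4% of 2265 rows). All 7 members with more than 1000 bases did so (median 4.41, against 0.84 and 65.7% of 3325 rows), namely *Nebl*, *Pdlim5*, *Ldb3*, *Xirp1*, *Tmod1*, *Des* and *Mylk3*.

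With the trend of each library over 3′ UTR length removed, also a step added after seeing the data, 21 members were called higher and 9 lower in WT, and 20 and 9 in KO, in edgeR's quasi-likelihood test. Of all 8044 rows, this fit called 5606 in WT and 5568 in KO, both directions together, so most rows were called. *Myh7* then turned to 0.78 in both genotypes and *Myh6* rose to 2.84 in WT, while *Xirp2* stayed at -3.22 in WT. Which part of a transcript was counted, and whether RNA fragments from the 3′ UTR entered the counts, is not given in the sources used here, and their part in the differences between assays was not tested.

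**Figure D5:**
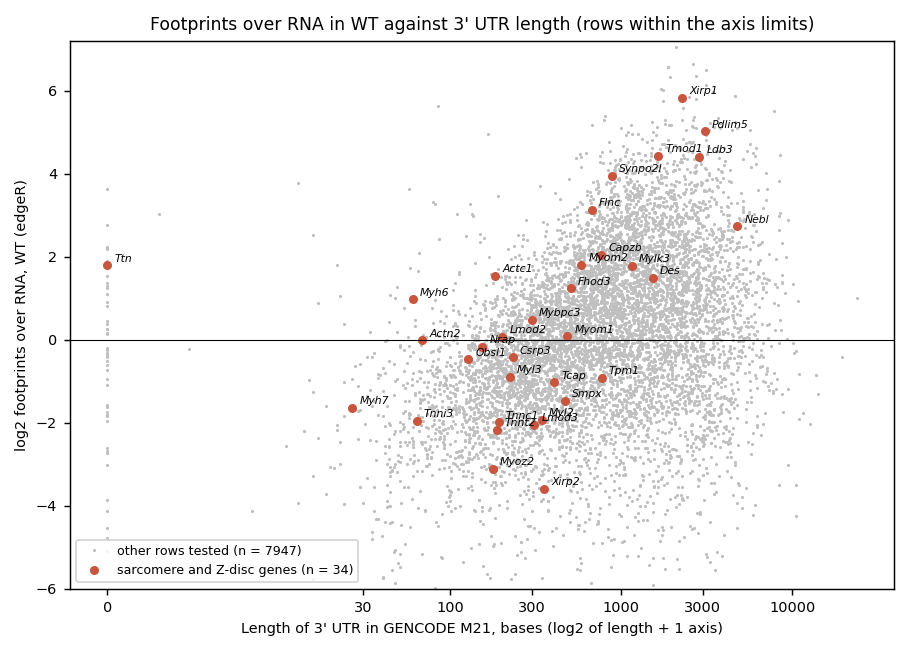
Log2 of footprints over RNA in WT (edgeR estimate, vertical axis) against annotated 3′ UTR length in bases (horizontal axis of log2 of length + 1) for the 34 members (labelled) and the other tested rows (grey, those within the axis limits). All 7 members with more than 1000 bases lie above 0, with *Xirp1* at 5.83, and 13 of the 18 with at most 400 bases do not, with *Xirp2* lowest at -3.60.

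Other genes of the sarcomere were taken from 3 wider lists. Of 10 isoform genes of other muscle, 20 further Z-disc and M-band partners and 15 genes of sarcomere assembly and turnover, 0 passed the adjusted threshold of edgeR's quasi-likelihood test in RNA, in RPF or in TE. Rows tested were 8, 16 and 14 in RNA and 8, 19 and 15 in RPF. At an unadjusted p under 0.05 there were 3 higher and 1 lower in RNA (2.54% of all rows), 4 higher and 5 lower in RPF (5.96%) and 0 in TE (3.73%). *Klhl41*, an adaptor of a ubiquitin ligase in muscle, had a log2 fold change of 0.40 (SE 0.16) in RNA. *Hspb7*, a small heat shock protein of heart and muscle, had a log2 fold change of -0.48 (SE 0.10) in RPF with an adjusted p of 0.517. The lowest p of the other lists in RPF belonged to *Fhl2*, a LIM protein that binds titin, at 0.37 (SE 0.12), and to *Myl7*, the atrial regulatory light chain, at 0.33 (SE 0.15), each with an adjusted p of 0.834. In TE they were *Tnnt1* (-0.45, SE 0.33), *Pdlim7* (-0.51, SE 0.26) and *Bag3* (-0.45, SE 0.31). *Ankrd1*, a cardiac ankyrin repeat protein of the I-band and nucleus, had -0.80 (SE 0.23) in RNA with 0.999, and *Myl4*, the atrial essential light chain, 0.65 (SE 0.27) with 0.999, both by edgeR's quasi-likelihood test. Summed atrial markers, a sum that includes *Myl4* and *Myl7* themselves, were 1681 to 2615 RNA CPM in WT and 2053 to 4136 in KO. The part of atrial cells in the *Myl4* and *Myl7* values was not tested.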

How the data were processed

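The deposited values are raw counts per transcript name, whole numbers made by the authors from their reads, in 12 libraries. The submitters' processing notes name cutadapt 1.18 and Bowtie2 2.4.2 with no role. The counting program, genome build, annotation, region counted, use of strand and treatment of reads with several matches are not given in the sources used here.

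Low rows were removed by filterByExpr (minimum count 10). TMM factors scaled the libraries, and the quasi-likelihood test was that of edgeR 4.0.16 (limma 3.58.1, R 4.3.3), p-values being adjusted by Benjamini-Hochberg over all rows tested. RNA and RPF were each fitted over 6 libraries with a genotype term. TE was the assay-by-genotype interaction in 12 libraries, and footprints against RNA within a genotype came from that fit. SE was derived from the estimate and its F statistic, and 95% intervals use the fit's degrees of freedom. CPM values use TMM-scaled totals within an assay, mitochondrial counts included. Shares were compared with exact permutation tests. Binomial intervals cover counting error only. Transcript structures came from GENCODE M21 (GRCm38), matched by name (98.87% of names), which may not be the authors' version. The fits were tested on simulated data. Figures used matplotlib 3.10.9 and Python 3.11.15.

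The genes, lists and tests were chosen with earlier results of these data known. Values in every library were to be given for *Myh6*, *Myh7*, *Ttn* and, in each of RNA, RPF and TE, the 3 genes with the lowest unadjusted p, and, for footprints against RNA in WT, the 4 genes with the largest difference in each direction. From the other sarcomere lists a gene is named if it had the lowest p of its list. *Flnc*, *Csrp3*, *Des*, *Capzb* and *Mylk3*, the 3′ UTR classes, the G plus C limits and the sequences shown were chosen after values were seen.

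Alternatives were median-of-ratios factors, DESeq2 1.42.0, no filter, mitochondrial rows removed, at least 50 counts on average, a replicate block, leaving out each library, all counts as the denominator of shares, and the members without *Ttn*. Removal of trends over G plus C or 3′ UTR length (lowess, span 0.3) was added after seeing the data.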

Additional observations from a re-analysis of the deposited data

How the results depend on the processing

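No alternative moved the count of members called between genotypes from 0 in RNA or TE. In RPF it became 1 without a filter on low counts (*Synpo2l*, -0.62, adjusted p = 0.018 in edgeR's quasi-likelihood test), a fit that called 60 of 15922 rows instead of 1 of 11153. The members lower in footprints than in RNA, 14 in each genotype, became 9 in KO with a mean of at least 50 counts (31 members tested), and 9 in WT and 9 in KO with the trend over 3′ UTR length removed. Over all rows, both directions together, the former fit called 2912 of 3889 in KO. The latter called 5606 of 8044 in WT and 5568 in KO. The summed RNA share, -0.47 percentage points in KO minus WT, became 0.013 with all counts, mitochondrial ones included, as the denominator. Only the denominator differs between these values. Mitochondrial counts were 56.9%, 58.2% and 53.4% of RNA counts in WT replicates 1 to 3 and 57.6%, 56.9% and 49.8% in KO. Why these shares differed between libraries was not tested.

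Single genes changed sign as follows. *Myh7* in footprints against RNA became 0.78 in WT and KO with the 3′ UTR trend removed. With single libraries left out, *Ttn* spanned -0.38 to 0.18 (RNA) and -0.012 to 0.51 (TE), *Myh7* spanned -0.23 to 0.028 (RPF) and -0.13 to 0.53 (TE), and *Myh6* spanned -0.041 to 0.11 (RPF). Leaving out libraries kept the counts called at 0 in the 3 genotype comparisons, at 15 to 16 higher and 13 to 14 lower in WT and at 16 and 14 in KO. The *Myh7* share difference spanned -0.22 to 0.21 points (RNA) and -0.041 to -0.0052 (RPF), and the summed share -0.66 to -0.23 (RNA) and -0.50 to -0.073 (RPF).

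With the replicate number as a block, 0 members were called between genotypes, 5 instead of 7 had an unadjusted p under 0.05 in RPF and 1 instead of 0 in RNA, and the *Ttn* RNA estimate became 0.0034. The share of all rows at an unadjusted p under 0.05 with this block is not given here. The labels do not say that a number pairs WT with KO, and deviations of equal numbers correlated at -0.18, 0.33 and 0.39 in RNA and at 0.06, 0.03 and 0.01 in RPF. RNA and RPF of the same genotype and number correlated at 0.08, 0.15 and 0.08 in WT and 0.11, 0.11 and 0.12 in KO, each best with its own number. With the block by heart (genotype and number) in TE, 0 members were called, and *Myh6* had 0.29 (adjusted p = 0.998 in edgeR's quasi-likelihood test).

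Depth limits the RNA values of *Nebl* and *Xirp1*, which had 7 to 16 and 4 to 24 raw counts per library.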

Other observations

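In the 3 wider sarcomere lists, footprints against RNA in WT were read in the same way. As for the members, the zero of this scale is set by the library scaling. The part of 3′ UTR length in the differences of these lists and of the markers below was not tested. Of the 14 tested genes of assembly and turnover, 12 were higher and 1 lower in footprints than in RNA (38.3% and 35.6% of all rows tested) by edgeR's quasi-likelihood test, with a median log2 difference of 2.02. *Smyd1*, a muscle histone and myosin methyltransferase, had 5.29 (SE 0.20). Of 8 isoform genes of other muscle, 0 were higher and 6 lower, with a median of -1.92, and *Myh7b*, a slow-type myosin heavy chain, had -6.12 (SE 0.32). Of 16 Z-disc and M-band partners, 8 were higher and 5 lower, shares near those of all rows, with a median of 0.35 and *Vcl*, the vinculin of costameres, at 6.32 (SE 0.26). Of the 5 fibroblast and 4 macrophage markers all were higher in footprints, as were 3 of 4 endothelial markers, with medians of 2.68, 1.83 and 3.29. Of 4 mural markers 3 were higher and 0 lower, of 7 ventricular muscle markers 3 were higher and 1 lower, and of 4 atrial markers 0 were higher and 3 lower, with medians of 1.38, 0.36 and -1.17.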
